A study of Mus musculus with 12 samples.

Results

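Recombination hotspots that the Ankrd31 knockout list held alone, away from genes, were described in the testis of adult male mice. They were selected on the deposited hotspot calls of both genotypes and on gene positions. A hotspot was counted here when it lay on an autosome, overlapped no hotspot of the wild type list by 1 bp, had its centre more than 1 kb from both ends of every RefSeq gene, coding or not, and had its centre outside every protein-coding gene. These conditions left 2488 of the 35514 hotspots of both lists. They were 12.2% of the 20448 autosomal knockout hotspots (95% exact binomial interval 11.7 to 12.6) and 25.7% of the 9688 autosomal knockout-only hotspots (24.8 to 26.6). Intervals of shares cover counting error only. Hotspots of both lists that met the same gene conditions, 5119 in number, served as the comparison and are called shared hotspots between genes.

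The series has 2 DMC1 samples of wild type mice, strain C57BL/6JCrl, and 2 of mice that carry the Ankrd31 tm1Atot allele, all from whole testis of adult males and precipitated with the same goat anti-DMC1 antibody. For the mutants the strain label holds only the allele. Their background strain is therefore unknown here, and effects of strain and of the allele cannot be told apart. Each genotype has 1 deposited list, and which animals it pools is not stated, so no value has a replicate check and no p-value was computed between genotypes. The 8 H3K4me3 and input samples, made at 13 days after birth, were not analysed here.

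In meiosis the enzyme SPO11 and its partners cut the chromosomes, and the recombinase DMC1 coats the resulting single-stranded DNA. DMC1 single-stranded DNA sequencing (SSDS) recovers that DNA, so a hotspot is an interval where breaks recur among the cells sampled. In mice the histone methyltransferase PRDM9 binds DNA motifs that mostly lie away from promoters and marks these places for breakage. Where PRDM9 is lacking, breaks are known to move to promoters and other sites that carry H3K4me3 already. ANKRD31 binds REC114, a component of the break machinery. In whole testis, fewer cells with breaks at a site and less DMC1 per cell at that site cannot be told apart.

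The knockout list held 22034 hotspots with 4203380 reads and the wild type list 13480 hotspots with 4376692 reads. Strength is the deposited read count of a hotspot minus the deposited background estimate. Of all autosomal knockout hotspots, 47.4% were knockout-only. Between genes the share was lower: 2488 of 7607 hotspots, 32.7% (31.7 to 33.8). Among those between genes with a strength of 100 or more it was 418 of 4104, 10.2% (9.28 to 11.2). The share over all autosomal hotspots of that strength was not computed, so the 10.2% has no matched value beside it. Inside protein-coding genes and more than 1 kb from every gene end, over all strengths, the share was 28.7% (27.7 to 29.8). It was 93.7% (93.0 to 94.4) among hotspots at most 1 kb from where a protein-coding gene starts or ends. These shares are fixed by the overlap that chose the hotspots and are given as a description. In the other direction, 644 of 5771 wild type hotspots between genes, 11.2% (10.4 to 12), had no partner in the knockout list. Over all autosomal wild type hotspots that share was higher, 1903 of 12663, 15.03% (14.4 to 15.7).

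Annotated start sites inside these intervals were looked for first, because a break site with no gene end nearby can still hold an alternative start of a noncoding gene. RefSeq start sites (GRCm38.p6, the assembly of the mm10 coordinates of the lists) fell inside 11 of the 2364 knockout-only hotspots between genes on chromosomes in the promoter table, 0.465% (0.233 to 0.831), and inside 12 of 4904 shared ones, 0.245% (0.127 to 0.427). All 14 start sites in the 11 hotspots belonged to long noncoding RNA genes. That none was protein-coding follows from the gene conditions. Each start lay within 1 kb of the centre of its hotspot, where these conditions allow no protein-coding start. The dinucleotide CG, known to be dense in many promoters of broadly expressed genes, occurred a median of 4.5 times in the 250 bases before these starts, against 3 before the 13 starts in shared hotspots between genes and 6 over 31396 autosomal start sites. Of all those start sites, which include protein-coding ones, 27.8% had 15 or more. Gm33195 and Gm34574 each gave more than 1 of the 14 starts, and the stretches of Gm33195 overlapped one another. Among the 13, those of Gm31954 did so too. Shown here are the 250 bases before 3 of the starts, 5′ to 3′ on the strand of the gene, with every CG in capitals. They are the one in the strongest of the 11 hotspots, the one with the most CG and one with 1 CG, chosen after their values were seen. The Gm46298 stretch is chr11:108910058-108910307 on the minus strand, the Mir9-3hg stretch chr7:79515185-79515434 on the plus strand and the Gm30034 stretch chr10:26494104-26494353 on the plus strand.
Gm46298: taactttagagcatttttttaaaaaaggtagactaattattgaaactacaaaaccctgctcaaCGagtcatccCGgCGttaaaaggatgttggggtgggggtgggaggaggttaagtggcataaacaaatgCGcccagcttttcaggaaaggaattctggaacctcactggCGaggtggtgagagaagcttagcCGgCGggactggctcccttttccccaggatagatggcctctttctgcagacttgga
Mir9-3hg: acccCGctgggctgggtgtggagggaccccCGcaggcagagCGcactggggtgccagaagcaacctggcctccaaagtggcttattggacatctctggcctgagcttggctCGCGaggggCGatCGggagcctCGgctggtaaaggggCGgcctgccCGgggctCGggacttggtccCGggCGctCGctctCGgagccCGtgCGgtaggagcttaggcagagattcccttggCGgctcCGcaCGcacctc
Gm30034: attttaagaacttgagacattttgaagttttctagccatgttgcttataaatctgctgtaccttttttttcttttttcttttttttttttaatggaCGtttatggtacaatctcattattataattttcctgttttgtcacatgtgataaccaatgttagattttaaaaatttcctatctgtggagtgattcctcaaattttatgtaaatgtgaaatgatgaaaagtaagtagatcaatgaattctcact
The Gm46298 stretch held 7 CG, the Mir9-3hg stretch 20 and the Gm30034 stretch 1. Mir9-3hg is the host transcript of a copy of the microRNA miR-9. The hotspots around them had strengths of 141, 56 and 84, in the same order. Only the Mir9-3hg stretch passed 15 CG among the 14, so the other 13 starts were below that density. The sequence of the hotspots themselves was not used here.

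Knockout-only hotspots between genes were weak. Their strength ran from 17 to 442 with a median of 61 and quartiles of 47 and 85. Shared hotspots between genes had a median of 164 in the same list, 2.69 times higher, with quartiles of 93 and 307 and a maximum of 3961. The log2 ratio of the medians, knockout-only over shared, was -1.43, and it lay between -1.68 and -1.17 on each of the 19 autosomes. The strength ranges overlapped widely, since 16.8% of knockout-only and 72.0% of shared hotspots reached 100. Knockout-only hotspots at protein-coding gene ends, 4550 on the autosomes, lay between these groups with a median of 90. Strength and the calls that chose the groups come from the same lists, so these values are a description.

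**Figure D1:**
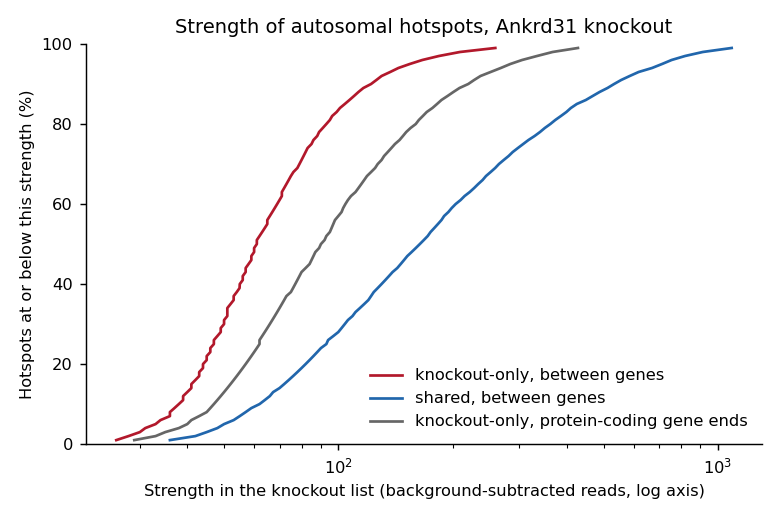
Share of autosomal hotspots at or below a given strength (1st to 99th percentile; strength in background-subtracted reads on a log axis) in the knockout list. The curve of knockout-only hotspots between genes lies farthest to the left (median 61), that of knockout-only hotspots at protein-coding gene ends in the middle (90) and that of shared hotspots between genes farthest to the right (164).

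Most of these hotspots sat near the lower end of the list. Of the 2488, 739 (29.7%) had a strength under 50, 418 (16.8%) one of at least 100 and 58 (2.33%) one of at least 200. Against the wild type autosomal list, 131 (5.27%, 4.42 to 6.22) exceeded its median of 149, compared with 53.9% of shared hotspots by their knockout strength. Strengths were not scaled between the lists here. Over all autosomal shared hotspots the median was 151 in the knockout and 182 in the wild type. Together the 2488 hotspots covered 3.88 Mb and held 4.63% of all strength in the knockout list, at a mean of 73.5. Shared hotspots between genes held 31.3% over 8.18 Mb, at a mean of 241. The background estimate was 11.6% of the reads in knockout-only hotspots between genes and 4.54% in shared ones, and within classes of like strength the shares were closer (11.9% and 10.2% from 50 to under 100). The weakest were 2 hotspots of strength 17, on chromosome 11 from 25330062 to 25331192, with 35 reads, and on chromosome 1 from 164478399 to 164479459, with 25 reads.

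By distance to genes, the strength of knockout-only hotspots varied little. The median was 63.5 at 1 to 2 kb from the nearest gene end, 59 at 2 to 5 kb, 60 at 5 to 20 kb, 62 at 20 to 100 kb and 65 beyond 100 kb. Among shared hotspots between genes the same medians were 143, 147, 150, 178.5 and 208. The order in the shared group thus went up with distance, while the knockout-only medians stayed between 59 and 65.

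The 20 strongest knockout-only hotspots between genes had strengths of 277 to 442 and ranks of 1742 to 3673 in the knockout list. They lay on 13 autosomes. In 7 the nearest gene end belonged to a pseudogene, in 6 to a long noncoding RNA gene, in 6 to a protein-coding gene and in 1 to a small nucleolar RNA gene. A protein-coding gene was more than 100 kb away in 8 and within 5 kb in 2. Background estimates in them ran from 3 to 103 reads.

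The strongest was on chromosome 8 from 100206356 to 100208438, with 452 reads and a strength of 442. It lay 789.7 kb from Cdh8, which encodes a cadherin of neuronal cell adhesion, and 146.3 kb from the nearest gene end. The next, on chromosome 4 from 88640237 to 88643133, had a strength of 436 and lay 1.96 kb from Ifna13, an interferon alpha gene. At 2896 bp and 103 background reads it was wider than all but 1 of the 20 and had the highest background among them. A hotspot on chromosome 7 from 73617618 to 73619588 (424) was 76.9 kb from Chd2, a chromatin remodeller gene. The nearest wild type hotspot of these 3 was 37.0 kb or more away.

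Next in order were 2 hotspots of strength 389. That on chromosome 2 from 80274777 to 80276113 was 17.0 kb from Prdx6b and 2.08 kb from a wild type hotspot, the only 1 of the 20 with a wild type hotspot within 10 kb. That on chromosome 3 from 113031139 to 113034107 was 115.0 kb from the amylase gene Amy2b and 783.2 kb from the nearest wild type hotspot. A hotspot on chromosome 7 from 38084309 to 38085959 (383) lay inside the long noncoding RNA gene Gm30771, 12.9 kb from the cyclin E1 gene Ccne1. On chromosome 18, one from 18482965 to 18484787 (361) was 500.3 kb from any gene end and 1477 kb from Dsc3, a desmosomal cadherin gene. Sites far from genes and sites near them thus both occurred among the strongest.

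Further down the order, a hotspot of strength 352 on chromosome 11 was 27.1 kb from Hlf, which encodes a leucine zipper factor. On chromosome 17 one of 325 was 26.5 kb from T, the brachyury gene of mesoderm formation. One of 324 on chromosome 2 was 1503 bp from Tbr1, a T-box gene of the developing cortex. One of 298 on chromosome 12 was 8.86 kb from Fos, the immediate early gene. The remaining 9 had as nearest protein-coding genes Esrp1 (343), Zfp395 (319), the ephrin gene Efna5 (318), the glutamate transporter gene Slc1a3 (316), Cdh10 (314), Triml1 (310), Nrsn1 (301), Dync1i1 (278) and Arglu1 (277). On each autosome the strongest such hotspot had a strength between 194 (chromosome 9, 137.2 kb from Sox14) and 442. Nearest is a statement of position alone.

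For scale, the strongest shared hotspot between genes, on chromosome 9 from 35304469 to 35306283 inside the noncoding gene Gm33838, had a strength of 3961 in the knockout and 4557 in the wild type. The next shared hotspot lay on chromosome 8 from 98594143 to 98595963, also with Cdh8 as the nearest protein-coding gene, with 1613 and 764. The strongest knockout-only hotspot between genes thus had a strength below that of the 5 strongest shared ones, the last of which had 1557 (near Cobl on chromosome 11).

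Inside noncoding genes lay 356 of the 2488 hotspots, 14.3% (13.0 to 15.7), and 757 shared hotspots between genes, 14.8% (13.8 to 15.8). The share was higher in the knockout-only group on 9 of 19 autosomes, and 12.6% of the sequence that meets the gene conditions lies inside a noncoding gene. After the hotspot in Gm30771, the strongest were in the pseudogene Gm11821 on chromosome 4 (343), and in the long noncoding RNA genes Gm29921 on chromosome 3 (256), Gm13266 on chromosome 2 (237) and Gm30094 on chromosome 18 (214). By the nearest gene end, 40.5% were next to a long noncoding RNA gene, 28.3% next to a protein-coding gene and 24.6% next to a pseudogene. The shared group had 39.6%, 27.0% and 25.7%, and the intervals of the groups overlapped for each kind.

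Distance to genes was then compared, since most knockout hotspots at gene ends were knockout-only. The median distance to any gene end was 16.2 kb for knockout-only and 17.5 kb for shared hotspots between genes. Within 5 kb of a gene end lay 20.7% (19.2 to 22.4) and 20.6% (19.5 to 21.7), where 18.0% of the sequence that meets the gene conditions lies. At protein-coding genes, 7.36% (6.36 to 8.45) and 7.76% (7.04 to 8.52) lay within 5 kb of an end, as did 7.30% of that sequence. The intervals of the groups overlapped at both distances. On single autosomes the share within 5 kb of any gene end was higher in the knockout-only group on 9 of 19.

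**Figure D2:**
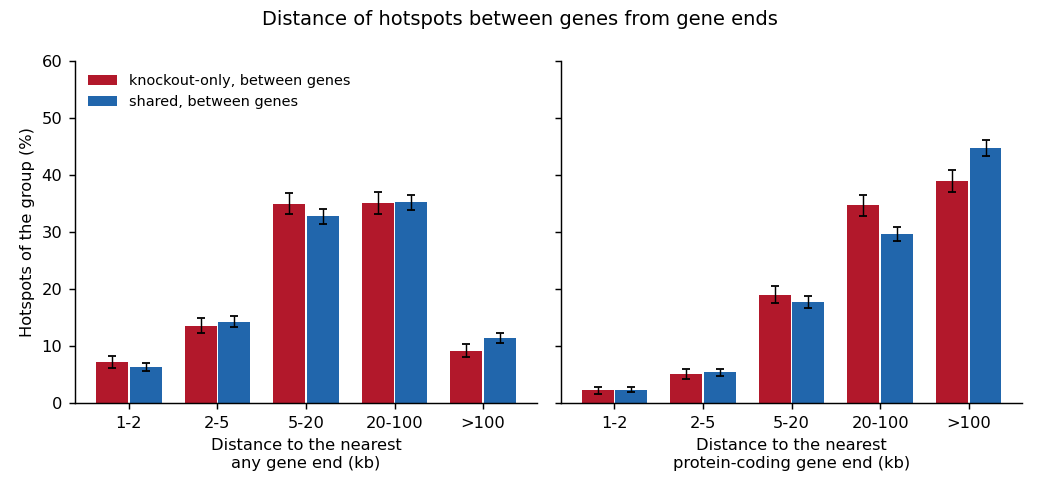
Share of hotspots between genes in classes of distance to the nearest gene end (left, any gene; right, protein-coding genes), with 95% exact binomial intervals. Bars of knockout-only and shared hotspots are near each other up to 20 kb, and 38.9% of knockout-only against 44.8% of shared hotspots lie more than 100 kb from a protein-coding gene end.

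Farther out the groups differed more. Knockout-only hotspots were more than 100 kb from any gene end in 9.16% (8.06 to 10.4) of cases and shared ones in 11.4% (10.5 to 12.3). From the ends of protein-coding genes, 38.9% (37.0 to 40.9) and 44.8% (43.4 to 46.2) were more than 100 kb away, with median distances of 61.7 and 79.0 kb. The median distance to any gene end was shorter in the knockout-only group on 15 of 19 autosomes. This order depended on strength. Among hotspots of strength under 100, a limit chosen after seeing the data, the log2 ratio of median distances to any gene end, knockout-only over shared, turned from -0.11 to 0.19. For protein-coding gene ends, the knockout-only and shared medians were 51.1 and 47.9 kb under a strength of 50, 63.2 and 63.0 kb from 50 to under 100 and 67.6 and 63.6 kb from 100 to under 200. At 200 and above they were 42.7 kb (58 hotspots) and 106.7 kb, the one class with a shorter knockout-only distance.

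Near a protein-coding gene, the side was read from the strand in the promoter table. Of the 183 knockout-only hotspots within 5 kb of such an end, 139 had a nearest gene with a strand, and 54 of them (38.8%, 30.7 to 47.5) were nearest to its start and 85 to its 3′ end. Shared hotspots between genes gave 41.6% (36.2 to 47.2) at the start side, and the wild-type-only ones 62.1% (51.0 to 72.3) of 87. The intervals of knockout-only and shared hotspots overlapped, and that of wild-type-only hotspots lay above both. At the edge of the 1 kb condition, the nearest kept hotspot was 1005 bp from an end of Zfp488 on chromosome 14 (strength 36), and another kept one was 1010 bp from Ssbp3 on chromosome 4 (96). The nearest hotspot left out was 995 bp from Gm34572 on chromosome 18 (68), and one at 988 bp from Cpa6 on chromosome 1 (26) was left out too.

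The farthest from any gene were in gene deserts. A hotspot on chromosome 15 from 15097616 to 15098958 was 631.6 kb from a gene end, with a strength of 38. One on chromosome 4 from 79910024 to 79911880 was 582.5 kb away (107), and one on chromosome 14 from 91769520 to 91770888 was 570.1 kb away (67). The nearest protein-coding genes were Cdh9, Tyrp1, a melanin synthesis gene, and Pcdh9. Then came the hotspot near Dsc3 named before, and one on chromosome 3 from 42462727 to 42464017 at 485.2 kb (45).

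Lists of genes were used to see which genes flanked these hotspots. Of 20661 autosomal protein-coding genes, 1739 (8.42%) were the nearest protein-coding gene of at least 1 knockout-only hotspot between genes, and 2945 (14.3%) of a shared one. Of 54 genes of cell adhesion and axon guidance, many of which border gene deserts, 30 (55.6%) flanked a knockout-only and 42 (77.8%) a shared hotspot. Besides Cdh8, Efna5 and Cdh10 these included Pcdh10, a protocadherin gene (strongest hotspot 259), the semaphorin gene Sema6d (183) and Pcdh18 (174). Of 67 genes of developmental transcription factors, 26 (38.8%) flanked a knockout-only hotspot and 38 (56.7%) a shared one. Examples were Gata3, of T cell development (222, at 8.97 kb), Sox6 (215, at 253.9 kb), Sall3 (160), Nr2f1 (141, at 7.60 kb), Tbx18 (112) and Gata6 (105). In both lists the knockout-only count was below the shared count, as it was over all genes. The length of the gaps beside these genes was not taken into account.

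In the other lists the share of genes beside a knockout-only hotspot was below the 8.42% of all genes. The share beside a shared hotspot was likewise below its 14.3% of all genes. No intervals were computed for these shares, and that of predicted genes, 7.15%, was near the 8.42%. Of 41 matched genes of meiotic recombination and synapsis, 0 were nearest to a knockout-only hotspot between genes and 5 (12.2%) to a shared one. Taking 3 counts as the limit of a count of 0 allows a share of up to 7.32%. That limit is not the exact interval given for other shares, so it does not place this list below all genes. Of 1456 olfactory and vomeronasal receptor genes, 30 (2.06%) flanked a knockout-only hotspot, led by Olfr414 (150), Olfr693 (131), Olfr281 (125), Olfr1132 (113), Vmn2r71 (111) and Vmn2r107 (110), and 54 (3.71%) a shared one. Of 965 protein-coding genes with a predicted-gene symbol, 69 (7.15%) flanked a knockout-only hotspot, among them Gm38821 (221), Gm6557 (210), Gm4737 (169), Gm11780 (165), Gm15501 (155) and Gm11677 (134), and 115 (11.9%) a shared one. The gene nearest to the most knockout-only hotspots was Gm11677 on chromosome 11 with 8, against 3 shared ones. Atxn7l3b, Lrrc4c, Pcdh7 and Zfp608 followed with 7 each, against 4, 5, 6 and 5 shared ones.

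The width of the called interval was compared within classes of strength, since width rose with strength in all groups. In hotspots with strength from 50 to under 100 the median width was 1538 bp for knockout-only hotspots between genes (n = 1331), 1492 bp for shared ones (n = 1195) and 1686 bp for knockout-only hotspots at protein-coding gene ends (n = 2015). From 100 to under 200 the medians were 1635, 1548 and 1862 bp. Knockout-only hotspots between genes were narrower than those at gene ends on 19 of 19 autosomes in both classes. They were wider than shared ones on 16 of 19 and 17 of 19. In the class under 50 the 3 medians were 1370, 1358 and 1396 bp. In each class the quartile range of knockout-only hotspots between genes overlapped those of both other groups.

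**Figure D3:**
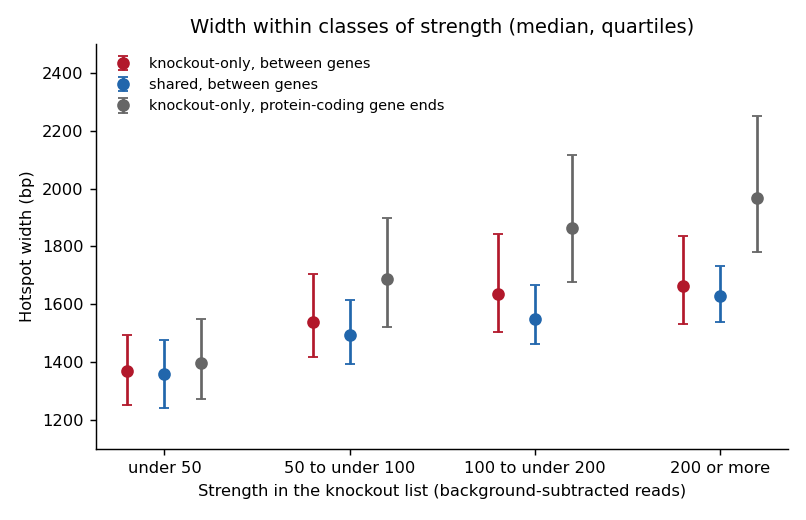
Width of the called interval (median with quartiles, bp) in classes of knockout strength for 3 groups of autosomal hotspots. From a strength of 50 on, knockout-only hotspots between genes lie close to shared ones (1538 against 1492 bp from 50 to under 100) and below those at protein-coding gene ends (1686 bp).

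Whether the knockout-only hotspots lay beside wild type hotspots was asked next. Only 8 (0.322%) had a wild type hotspot within 1 kb and 67 (2.69%, 2.09 to 3.41) within 5 kb, and the median gap was 71.6 kb. For shared hotspots between genes the gap to the next wild type hotspot was 73.3 kb, and 1.99% (1.63 to 2.41) had one within 5 kb. The closest pair was 228 bp apart, for a hotspot of strength 83 on chromosome 7 from 40963295 to 40964719. On the other side of the overlap condition, the smallest overlap of a shared hotspot between genes was 118 bp (chromosome 18, strength 100) and the next 807 bp. Few calls thus lay near the limit of the overlap condition.

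Neighbouring hotspots were compared next. Another knockout-only hotspot of any kind lay within 10 kb of 6.59% (5.65 to 7.64), against 5.20% (4.60 to 5.84) of shared hotspots between genes, with median gaps of 83.0 and 108.4 kb. These intervals overlapped. Without chromosomes 1 and 10 to 15, which are described below, the shares were 4.59% (3.59 to 5.79) and 4.78% (4.04 to 5.61), with the shared group now the higher one. The median gaps without them were 93.1 and 110.5 kb, still shorter for knockout-only hotspots. Any other knockout hotspot, knockout-only ones included, lay within 10 kb of 12.3% (11 to 13.6) and 10.2% (9.40 to 11.1). Another shared hotspot lay within 10 kb of 5.79% (4.90 to 6.78) and 5.18% (4.59 to 5.82), with median gaps of 80.8 and 81.8 kb. The intervals of the groups overlapped in both comparisons. A knockout-only hotspot at a protein-coding gene end lay within 10 kb of 1.77% (1.29 to 2.37) and 2.05% (1.68 to 2.48).

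Shared hotspots near knockout-only ones kept the strength ratio of the others. Each strength was divided by its own list's median over autosomal shared hotspots (151 in the knockout, 182 in the wild type), and the log2 of knockout over wild type was taken. Over all autosomal shared hotspots the median log2 ratio was -0.28 as deposited and -0.01 after scaling. The 293 shared hotspots between genes with a knockout-only hotspot between genes within 20 kb had a median log2 ratio of 0.21 (quartiles -0.31 and 0.71), and the 4826 others had 0.22 (-0.32 and 0.76). Over 2-fold higher were 17.1% of the first and 17.0% of the second, where 12.4% of all autosomal shared hotspots were. Over 2-fold lower were 6.48% and 6.98%, where 15.9% of all were. The median near knockout-only hotspots was the lower one on 9 of 19 autosomes.

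The autosomes differed in how many such hotspots they held, and the lower end of the lists differed between them as well. Knockout-only hotspots made up 21.7% (17.4 to 26.4) of knockout hotspots between genes on chromosome 14 (73 beside 264 shared ones) and 21.8% (17.7 to 26.3) on chromosome 13. They made up 40.2% (36.2 to 44.3) on chromosome 10 and 40.4% (35.9 to 44.9) on chromosome 11. Over all knockout hotspots of the same autosomes, wherever they lay, the knockout-only share differed likewise. It was 35.3% on chromosome 14, 34.5% on 13, 52.9% on 10 and 56.5% on 11. Per Mb of sequence that meets the gene conditions, knockout-only hotspots between genes numbered 1.00 on chromosome 14 and 3.39 on chromosome 10. That was a 3.38-fold range, while shared hotspots between genes ranged over 1.69-fold. The hotspots on chromosomes 10 and 11 were also the weakest, with medians of 47 and 44, and shared ones there had the lowest medians as well (122 and 124).

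The lower end of strength moved in steps with the chromosome. In the knockout list the 5th percentile of strength was 29 to 35 on chromosomes 1, 10, 11 and 12 and 44 to 48 on the other 15 autosomes. In the wild type list it was 34 to 37 on chromosomes 1 and 10 to 15 and 49 to 57 on the other 12. The weakest listed hotspot had a strength of 16 to 20 on the first 4 chromosomes of the knockout list and of 28 to 39 on the others. When chromosome names are sorted as text, chromosomes 1 and 10 to 15 come first, in that order. In both lists the lower values thus form an unbroken first stretch of that order. What set these steps was not tested.

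**Figure D4:**
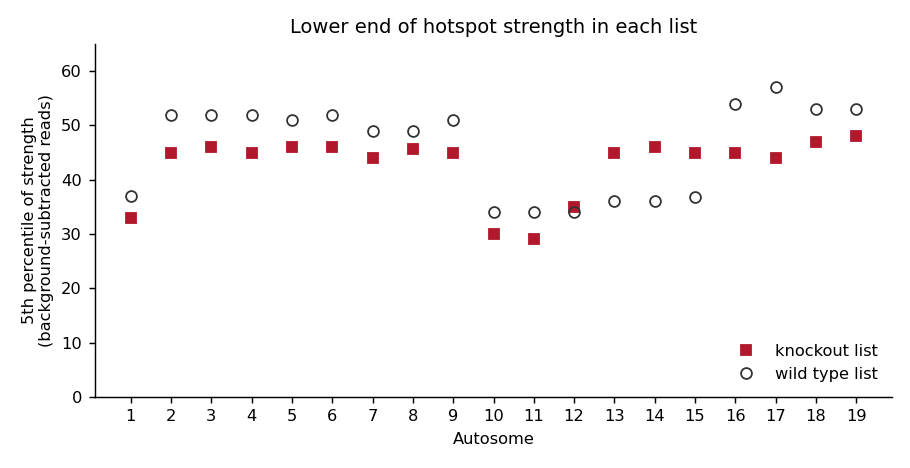
The 5th percentile of hotspot strength (background-subtracted reads) on each autosome in the knockout list (squares) and the wild type list (circles). It is lower on chromosomes 1 and 10 to 12 in both lists and on chromosomes 13 to 15 in the wild type list alone.

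The counts moved with these steps, and the part of the steps in them was not tested. On chromosomes 1 and 10 to 12, where both lists reach low, 35.5% (33.5 to 37.6) of knockout hotspots between genes were knockout-only and 48.5% of these had a strength under 50. On chromosomes 13 to 15, where the wild type list alone reaches low, 24.2% (21.6 to 26.9) were knockout-only, and the wild-type-only share of wild type hotspots between genes was 18.0% against 11.3% on the first 4. On the other 12 autosomes the knockout-only share was 33.4% (32.0 to 34.8), and the wild-type-only share was 9.05%. With both lists limited to a strength of at least 60, above the 5th percentile of every autosome in either list, the 3 shares were 30.1% (27.7 to 32.5), 25.6% (22.7 to 28.7) and 28.8% (27.4 to 30.3). Single autosomes then ran from 23.3% (chromosome 13) to 34.6% (chromosome 17), and the range of hotspots per Mb was 1.84-fold in place of 3.38-fold. Among the 418 hotspots of strength at least 100 that range was 4.37-fold, from 0.143 per Mb on chromosome 1 to 0.626 on chromosome 16. Its ends rest on 16 and 35 hotspots, and the part of counting error in these ranges was not tested. The limit of 60 was chosen after seeing the data and was applied to strengths not scaled between the lists.

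**Figure D5:**
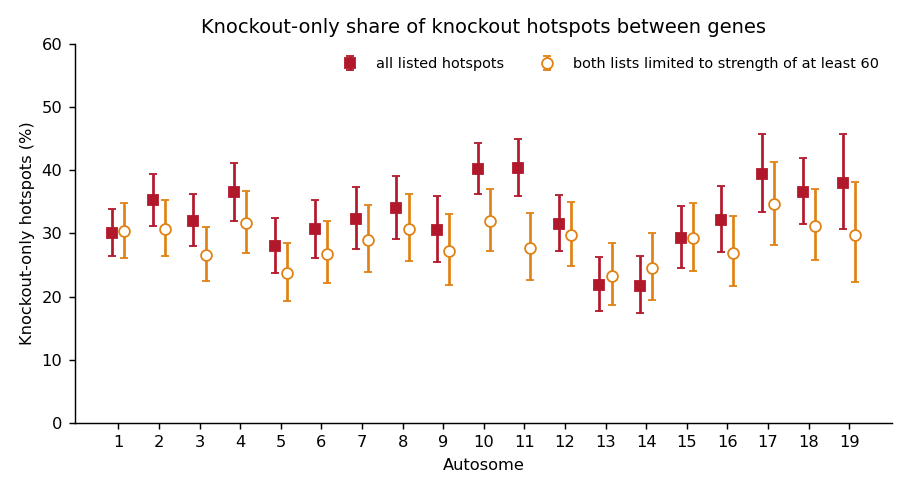
Knockout-only share of knockout hotspots between genes on each autosome with 95% exact binomial intervals, over all listed hotspots (squares) and with both lists limited to a strength of at least 60 (circles). Chromosomes 10 and 11 drop from 40.2% and 40.4% to 32.0% and 27.7%, and chromosomes 13 and 14 rise from 21.8% and 21.7% to 23.3% and 24.5%.

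Under that limit the number of knockout-only hotspots between genes was 1711 of 5965, 28.7% (27.5 to 29.9), against 44.2% (43.5 to 45.0) over all autosomal hotspots. Of the 2488 described here, 1313 had a strength of at least 60, and the rest of the 1711 had a wild type partner weaker than 60. Of the 2488, 1175 (47.2%) were weaker than 60 themselves.

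Along the chromosomes, the knockout-only share was also taken in windows of 10 Mb that held at least 20 knockout hotspots between genes. Over 213 windows it ran from 4.55% to 58.8% with a median of 31.0%, and 13 windows exceeded 50%. The window with the most was chromosome 10 from 110 to 120 Mb, with 51 knockout-only and 41 shared hotspots (55.4%, 44.7 to 65.8). Its knockout-only hotspots had a median strength of 53 and its shared ones 90, and with both lists limited to a strength of at least 60 the share there was 39.2% (25.8 to 53.9). The strongest there, from 112798996 to 112800658, had a strength of 204 and lay 125.6 kb from Atxn7l3b. The highest share, 58.8%, was on chromosome 11 from 100 to 110 Mb, where shared hotspots had a median of 62. Under the limit 177 windows kept 20 hotspots, they ran from 4.35% to 55% and 2 exceeded 50%, namely chromosome 4 from 120 to 130 Mb (52.2%, 30.6 to 73.2) and chromosome 17 from 40 to 50 Mb (55%, 31.5 to 76.9). Windows with few hotspots have wide intervals.

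Each chromosome was divided from its first to its last gene into 5 equal stretches, and the most distal one held 23.7% (22.1 to 25.4) of knockout-only and 20.6% (19.5 to 21.7) of shared hotspots between genes. The other 4 held 18.4% to 20.2% of the knockout-only group. Wild-type-only hotspots between genes, which are the mirror group in the wild type list, had 33.2% (29.6 to 37.0) in the most distal stretch.

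The wild-type-only hotspots between genes had a median strength of 59, and a larger share of them lay near genes. Within 5 kb of a gene end were 29.8% (26.3 to 33.5), against 20.7% of the knockout-only group, and within 5 kb of a protein-coding gene end 17.1% (14.3 to 20.2) against 7.36%. Neither pair of intervals overlapped. By strength, the shares within 5 kb of any gene end were 20.9% of wild-type-only and 21.2% of knockout-only hotspots under 50, 30.3% and 19.4% from 50 to under 100, and 42.5% and 23.9% from 100 to under 200, so the difference was not seen in the weakest class. Of the wild-type-only ones, 176 lay on chromosomes 13 to 15. Strengths of the 2 lists were not scaled to each other in this comparison.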

How the data were processed

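DMC1 SSDS of mouse testis was used, 2 samples per genotype and 1 deposited list per genotype. Build mm10 and the tools BWA, Bowtie2, CASAVA and MACS2 appear in the submitters' processing notes, with neither version nor role. Per the file headers and labels, the authors deposited a read count for each hotspot (signal reads, whole numbers), a background signal, a strength score, a percent of the list's strength and a rank as another value. Strength equalled count minus background in 100% of hotspots. Total library depth was not used here. Lists were read with Python 3.11.15 and pandas 2.3.3 and overlapped at 1 bp; start positions are as listed, and whether they count from 0 or 1 is not stated. Genes came from RefSeq GRCm38.p6, 47038 on the autosomes; start sites on chromosome 18 were not used here. Where a share has an interval, it is the exact (Clopper-Pearson) 95% interval from scipy 1.17.1. The limit of a count of 0 is not such an interval. No test was run, since each genotype is 1 list and hotspots are not replicates. Steps were tested on simulated intervals. Named hotspots were the 20 strongest, the strongest of each autosome, the 5 farthest from genes, the 5 strongest in noncoding genes and those at the limits of the conditions; the strongest of the window with the most hotspots was chosen after its values were seen. The 5 gene lists are of meiotic recombination and synapsis, developmental transcription factors, cell adhesion and axon guidance, receptor (olfactory and vomeronasal) and predicted genes; the result of 1 other list is not reported here. The hotspots and lists were chosen with earlier results of these data known. Alternatives varied the overlap, the distance to genes, the genes counted and the strength minimum. Sequence of the hotspots was not used here, so the planned comparison of base composition was not made.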

Additional observations from a re-analysis of the deposited data

How the results depend on the processing

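Of 31 alternative values over the results on number, strength, distance, noncoding genes, neighbours and density, 20 stayed within the spread used (1.5 times for counts and for the density range, the interval of a share, or the SD over 19 autosomes, 0.13 for strength and 0.26 for distance), 10 moved beyond it and 1 turned direction. The number of hotspots was 1972 to 2941 under the 7 other choices of overlap, distance and genes, and 418 with a strength of at least 100. The log2 strength ratio to shared hotspots, -1.43, was -0.82 with a strength of at least 100, -1.72 on means and -1.22 with both lists limited to a strength of at least 60. The log2 ratio of median distances to gene ends, -0.11, was -0.38 with a strength of at least 100 and 0.19 with a strength under 100 in both groups. With a strength of at least 100, 5.26% had a wild type hotspot within 5 kb and 9.09% another knockout-only hotspot within 10 kb, and the latter was 4.59% without chromosomes 1 and 10 to 15. The range over autosomes of hotspots per Mb, 3.38-fold, was 1.84-fold with both lists limited to 60 and 1.61-fold without chromosomes 1 and 10 to 15. It was 4.37-fold with a strength of at least 100, where its ends rest on 16 and 35 hotspots. The cause of these changes was not tested, except that a strength minimum removes weak hotspots by construction. The alternatives with 60, with a strength under 100, for density and without chromosomes were chosen after seeing the data. No paired analysis was possible because each genotype has 1 list and the columns carry no replicate numbers, and for the same reason no replicate could be left out. Library depth was not used here, so what it limits near the lower end of the lists, where the lowest of the 2488 had 23 reads, was not tested.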
